A study of Mus musculus with 21 samples.

Results

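The levels of 33 marker genes of glial and vascular cells were examined in nuclei that had been sorted for neurons. The genes were taken by symbol from a table of 39008 features, and all 33 were in it. They fall into 5 groups by the cell type they are used to mark: 6 for oligodendrocytes, 5 for oligodendrocyte precursors, 9 for astrocytes, 5 for microglia and 8 for vascular cells, which here means endothelial cells, pericytes and fibroblasts. Sorting on NeuN, the neuronal nuclear protein encoded by Rbfox3, is meant to leave the nuclei of these other cells behind. Their transcripts were therefore read as a guide to the purity of the sort, and were compared between injected and other samples. Since these nuclei are meant to be left behind, the levels do not measure how glia in the tissue responded to injection.

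Nuclei came from 200 mg of cortex per sample, from mice kept on a C57BL/6J background, and polyA RNA was sequenced in 9 libraries. The WT group held 3 wild-type samples, the Het group held 3 Scn2a+/- samples, and the Het CRISPRa group held 3 Scn2a+/- samples from mice injected with AAV-sadCas9-VP64 and rAAV-Scn2a-sgRNA. The injection was 500 nL into the medial prefrontal cortex, 4 weeks before use, with the sgRNA and the sadCas9-VP64 virus mixed in equal parts. Scn2a encodes a neuronal sodium channel, and the injected viruses carry a catalytically dead Cas9 fused to the activator VP64 and a guide RNA for Scn2a. The labels give no age or sex for any group and leave unstated if the WT and Het mice were injected with anything, and no group received a virus without the guide RNA. Genotype is therefore compared between WT and Het, whereas the injected group differs from Het by the 2 viruses together, and by surgery if Het mice had none, and these cannot be told apart. The sorted nuclei can include neurons that took up no virus. The labels do not say that the 3 samples of a group came from separate mice, so the p-values below measure the spread between these samples. The 12 Neuro2a libraries of the series were not used here.

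Oligodendrocytes wrap axons in myelin and arise from precursor cells that carry PDGF receptor alpha and the NG2 proteoglycan. Astrocytes clear glutamate and potassium from around synapses and raise structural proteins such as GFAP when tissue is injured. Microglia are the resident macrophages of the brain, endothelial cells form the blood-brain barrier, pericytes surround capillaries, and fibroblasts lie in the meninges and around larger vessels. None of these cells carries NeuN, although some of the genes that mark them are also transcribed in neurons: the astrocytic glutamate transporter gene Slc1a2 is known to be transcribed in some excitatory neurons, and the Mbp locus also makes golli transcripts that are found in neurons.

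Levels are given as CPM, the read count scaled to library size. The smallest step between low values put the depth of the libraries at 15.5 to 20.1 M reads, so that 3 reads, taken here as the floor of detection, correspond to 0.149 to 0.193 CPM. The 2 vector features, mCherry-puro and sadCas9-VP64, were listed at 0 in all WT and Het libraries and reached 1.45 to 1.84 and 4.09 to 7.12 CPM in the Het CRISPRa libraries. Scn2a lay between 203 and 291 CPM in all 9 libraries. Fewer features were above 0 in Het (25410 to 25801) than in WT (28109 to 28272), with Het CRISPRa between 26118 and 28228. The first principal component of all tested genes held 33.9% of the variance, and Het replicate 1 (-53.1) and WT replicate 3 (35.5) lay at its ends. The library numbers in the file headers run from 7 to 12 for replicates 1 and 2 of each group and from 15 to 17 for replicate 3.

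Most markers were at low levels. By their mean over the 9 libraries, 16 of the 33 genes lay under 1 CPM, 11 between 1 and 5 CPM and 6 at 5 CPM or more. These 6 were Slc1a2, Mbp, Vcan, Ndrg2, Mobp and Csf1r. Slc1a2 alone held 63.1% of the summed CPM of all 33 genes. Of the 33 genes, 30 were above 0 in every library and 24 were at or above 3 reads in every library. The 3 genes listed at 0 somewhere were the endothelial tight junction gene Cldn5 (5 libraries), the oligodendrocyte lineage transcription factor gene Olig2 (3 libraries) and the endothelial VEGF receptor gene Flt1 (1 library). Which cells these reads came from was not tested.

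**Figure D1:**
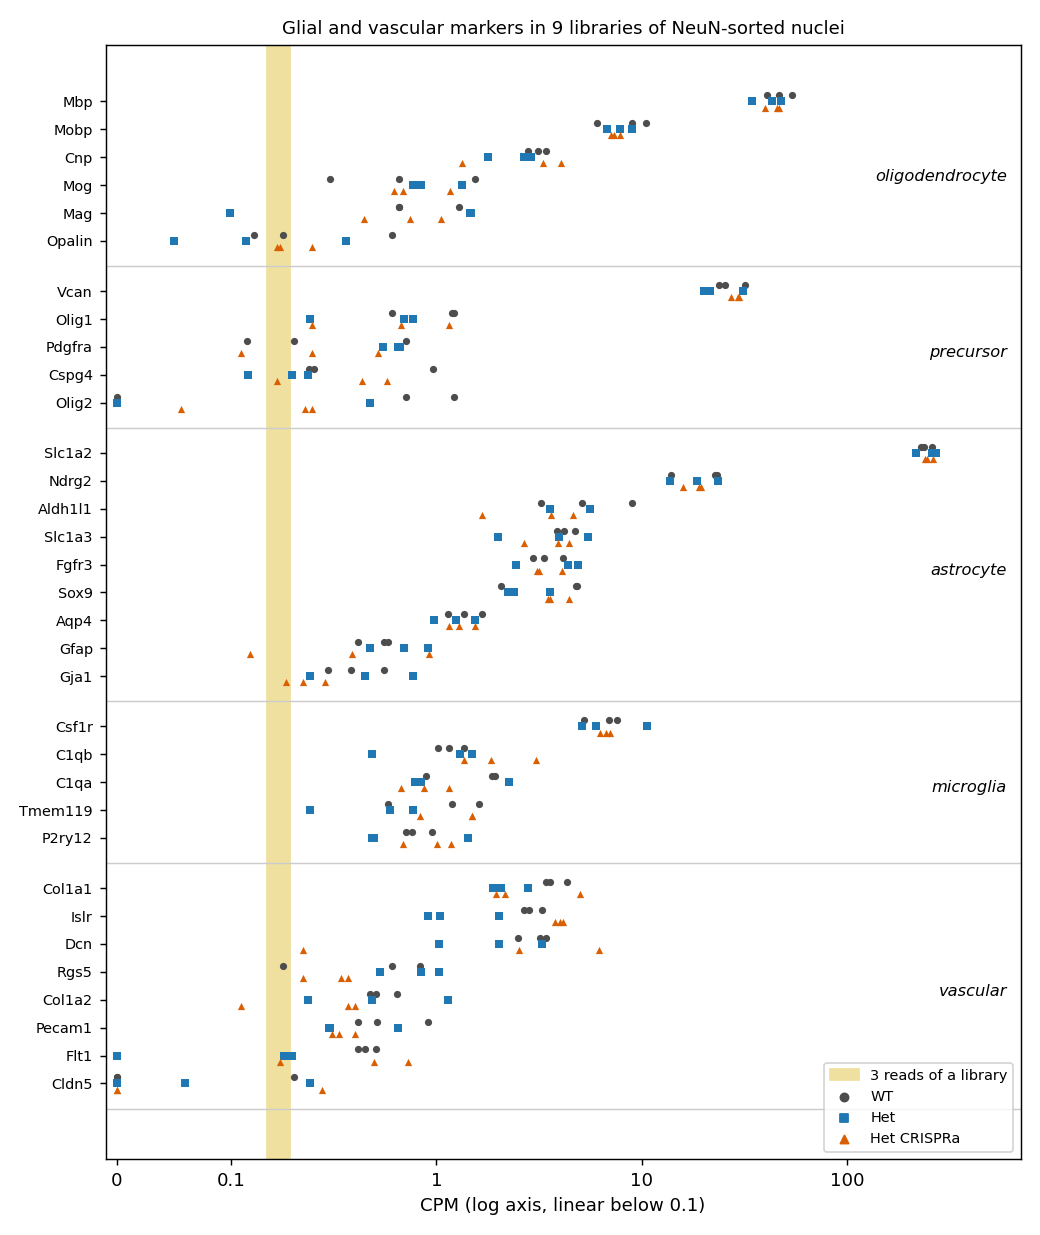
CPM of the 33 markers (rows, by cell type) in each of the 9 libraries, on a log axis that is linear below 0.1 CPM. Circles are WT, squares Het and triangles Het CRISPRa, 3 points each, and the shaded band is the value of 3 reads (0.149 to 0.193 CPM). Slc1a2 stands above all others, most genes lie under 5 CPM, and for most genes the 3 groups overlap.

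Per kb of exon, which allows genes to be compared, the median mean level was 1.18 CPM per kb for the microglial group, 0.645 for the oligodendrocyte group, 0.504 for the astrocyte group, 0.129 for the precursor group and 0.0979 for the vascular group. The 15 neuronal genes measured beside them had a median of 33.4 CPM per kb, the 12 excitatory neuron genes 21.6 and the 12 inhibitory neuron genes 6.28. Rbfox3, the gene whose product was sorted on, had 50.3 CPM per kb and lay between 260.3 and 358.1 CPM. The labelled cell type, neurons, was thus met by its markers. Slc1a2 at 18.8 CPM per kb was the one gene of the 33 above the inhibitory median, and Ndrg2 (5.56) and Mbp (5.22) came next. The microglial median was the value of Csf1r, which shares exon sequence with Hmgxb3 on the other strand, at 33.7 CPM. The microglial genes ranged from 0.336 to 1.33 CPM per kb.

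**Figure D2:**
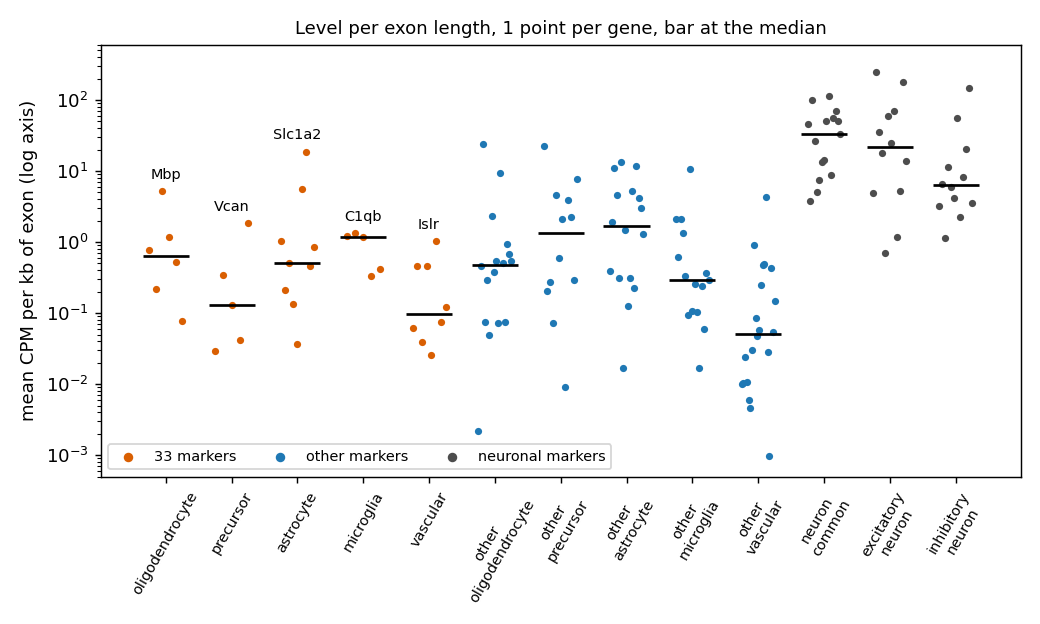
Mean CPM per kb of exon over the 9 libraries, on a log axis, with 1 point per gene and a bar at each list's median. The 5 groups of the 33 markers are at the left with their highest gene named, the further glial and vascular markers are in the middle and the neuronal markers at the right. Medians of the 5 groups lie between 0.0979 and 1.18 and the median of the neuronal genes at 33.4.

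Summed over each group, the markers came to small shares of the summed CPM of the 15 neuronal genes (3326 to 3927 CPM). The astrocyte group came to 7.05 to 8.38% of it, the oligodendrocyte group to 1.33 to 1.76%, the precursor group to 0.616 to 0.985%, the microglial group to 0.194 to 0.47% and the vascular group to 0.166 to 0.362%. A single gene carried most of 4 of the 5 sums: Vcan 93.5% of the precursor sum, Slc1a2 87% of the astrocyte sum, Mbp 77.7% of the oligodendrocyte sum and Csf1r 60.1% of the microglial sum. The vascular sum was spread more evenly, with Col1a1 at 29%. In bulk RNA, fewer nuclei of a type and less RNA per nucleus cannot be told apart, and a share of CPM is not a share of nuclei.

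The promoter windows of 23 of the 33 genes were found in the RefSeq table (GRCm38.p6, 28 windows of 300 bases). They are shown for the most abundant marker, Slc1a2 (chr2:102706188-102706487, plus strand), and for Islr (chr9:58158505-58158804, minus strand), the marker with the smallest p in any comparison below. Each reads 5′ to 3′ on the gene's strand and CpG dinucleotides are in capitals.
Slc1a2: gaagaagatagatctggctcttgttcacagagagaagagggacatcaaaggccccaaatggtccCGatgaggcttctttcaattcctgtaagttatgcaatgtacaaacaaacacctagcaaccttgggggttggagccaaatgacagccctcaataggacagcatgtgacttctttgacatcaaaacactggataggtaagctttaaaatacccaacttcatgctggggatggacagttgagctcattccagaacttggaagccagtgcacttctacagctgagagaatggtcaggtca
Islr: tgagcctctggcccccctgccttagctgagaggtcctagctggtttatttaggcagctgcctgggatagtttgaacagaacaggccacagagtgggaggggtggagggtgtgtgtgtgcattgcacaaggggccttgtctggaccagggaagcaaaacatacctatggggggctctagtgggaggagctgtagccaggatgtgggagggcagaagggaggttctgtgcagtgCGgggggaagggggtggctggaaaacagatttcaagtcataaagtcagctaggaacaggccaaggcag
Each window held 1 CpG, where the median over the 28 windows and over all 32851 windows outside one chromosome that was not used was 7. Neither held the TATA box letters TATAAA on either strand, which 4 of the 28 windows and 13.6% of all windows did. The letters GGGCGG of a GC box were absent from both too, and were found in 14 of the 28 windows and 35.7% of all windows. The same held for the CCAAT box, found in 11 of the 28 windows and 37.4% of all windows. A window without a motif says only that those letters are not in these 300 bases. No other window was found for Slc1a2 or Islr, and which start sites of these genes are used in these nuclei was not tested.

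The 3 comparisons were made with limma on log2(CPM + 0.5) over the 18967 genes that reached 0.5 CPM in 3 or more libraries. Of the 33 markers, 27 met that filter. Opalin, Cspg4, Olig2, Gja1, Cldn5 and Flt1 did not and are given as levels only. None of the 27 passed the threshold of an adjusted p of 0.05 in limma's test in any comparison. In Het minus WT, 0 of all tested genes passed (0%), and 1 marker, Islr, was among the 951 genes under 0.05 before adjustment. In Het CRISPRa minus Het, 8 of all tested genes passed (0.0422%), and 2 markers, Islr and Tmem119, were among the 996 genes under 0.05 before adjustment. In Het CRISPRa minus WT, 1 of all tested genes passed (0.00527%), and no marker was among the 335 genes under 0.05 before adjustment.

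In the authors' deposited tables of DESeq2 results, 15 features had an adjusted p under 0.05 in Het minus WT (0.0647%), 76 in Het CRISPRa minus Het (0.317%) and 10 in Het CRISPRa minus WT (0.0403%). No marker was among them, and 1 marker in each of the authors' deposited tables had an unadjusted p under 0.05, namely Islr, Islr and Aldh1l1. The median log2 difference of the 27 markers was -0.13 in Het minus WT, 0.0036 in Het CRISPRa minus Het and -0.11 in Het CRISPRa minus WT, beside medians over all tested genes of -0.05, 0.04 and -0.02. In Het minus WT 8 markers lay above 0 and 19 below, in Het CRISPRa minus Het 14 above and 13 below, and in Het CRISPRa minus WT 9 above and 18 below. The comparisons share samples, so these counts are not independent of each other.

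**Figure D3:**
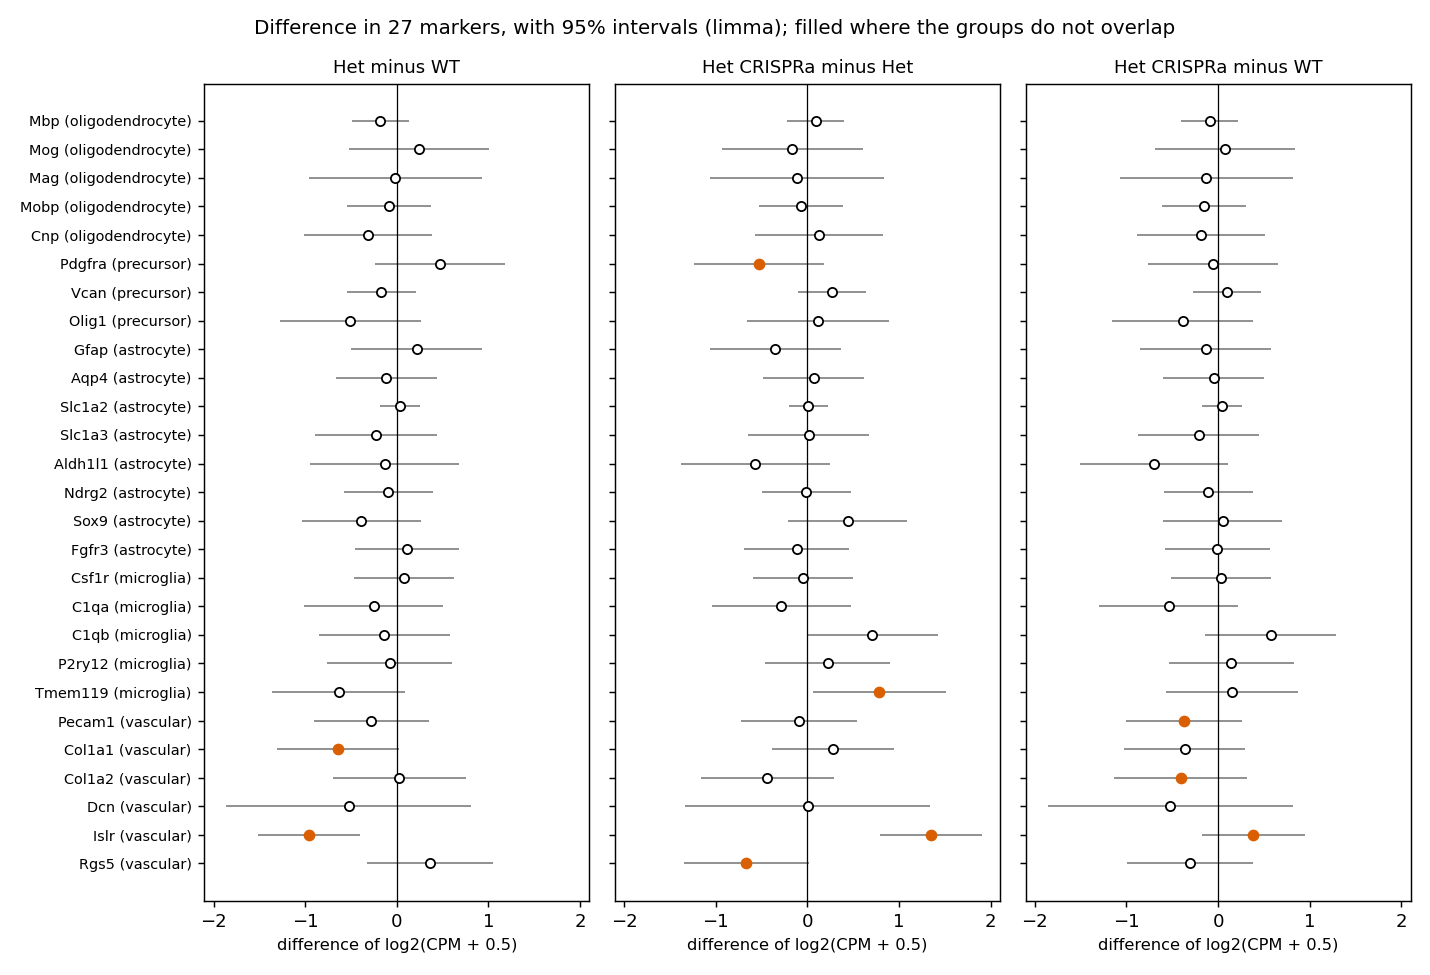
Differences of log2(CPM + 0.5) for the 27 tested markers (rows) in the 3 comparisons (panels), as points with 95% intervals from the limma fit. Filled points mark genes whose 2 groups do not overlap, and the intervals of Islr in Het minus WT and of Islr and Tmem119 in Het CRISPRa minus Het do not reach 0. The narrowest intervals belong to Slc1a2.

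Separation of the raw levels was also rare. In Het minus WT the groups did not overlap for 2 of the 27 tested markers, Col1a1 and Islr, both lower in Het (7.41%, beside 7.3% of all tested genes), and for none in the other direction (3.37% of all tested genes). In Het CRISPRa minus Het, Islr and Tmem119 were higher without overlap (7.41%, beside 5.37%) and Pdgfra and Rgs5 lower (7.41%, beside 4.61%). In Het CRISPRa minus WT, Islr was higher without overlap (3.7%, beside 2.68%) and Pecam1 and Col1a2 lower (7.41%, beside 4.46%). These shares are near those of all tested genes. Of the untested markers, Cspg4 and Flt1 were lower in Het than in WT without overlap and Gja1 was lower in Het CRISPRa than in WT, all at 0 to 15 reads per library. With 3 samples against 3, an exact two-sided permutation test cannot give a p below 0.1. For the sums of gene lists below, no test was run and no background share of separated groups was drawn. Several lists were summed in the 3 comparisons, so a separation of sums is a description only.

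Among the oligodendrocyte genes, Mbp encodes myelin basic protein, a main protein of compact myelin. Its level was 46.8, 54.0 and 40.6 CPM in the WT libraries, 34.5, 47.5 and 42.9 CPM in Het, and 46.4, 40.0 and 45.5 CPM in Het CRISPRa. The 3 groups overlapped. The limma difference on the log2(CPM + 0.5) scale was -0.18 (95% interval -0.49 to 0.13) for Het minus WT and 0.09 (-0.22 to 0.40) for Het CRISPRa minus Het.

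Mobp encodes a myelin-associated basic protein of oligodendrocytes. It was at 8.95, 10.5 and 6.05 CPM in WT, 7.83, 8.96 and 6.77 CPM in Het and 7.30, 7.81 and 7.08 CPM in Het CRISPRa. The Het and Het CRISPRa values all lay within the WT range. Cnp, which encodes a myelin phosphodiesterase, ranged from 1.34 to 4.04 CPM, Mog (myelin oligodendrocyte glycoprotein) from 0.304 to 1.54 CPM and Mag (myelin-associated glycoprotein) from 0.0995 to 1.48 CPM. Opalin, which encodes an oligodendrocyte membrane protein, was at 1 to 12 reads per library, and 3 of the 9 libraries were under the floor. Cnp shares exon sequence with Dnajc7 on the other strand, which was at 374 CPM, and strandedness is not given in the sources used here, so reads of the 2 genes cannot be told apart here.

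The summed oligodendrocyte group was 60.8 ± 8.1 CPM (SD, n = 3) in WT, 54.1 ± 7.92 in Het and 56.0 ± 3.18 in Het CRISPRa, with overlapping groups. Without Mbp the sum ranged from 10.2 to 15.2 CPM. Of 16 further oligodendrocyte genes 11 were tested and none passed in any comparison, with 1, 0 and 0 at an unadjusted p under 0.05 in the 3 comparisons in the order above. The most abundant was Enpp2, which encodes autotaxin, at 134.5, 142.8 and 105.3 CPM in WT, 216.6, 172.4 and 94.3 CPM in Het and 135.1, 119.0 and 145.0 CPM in Het CRISPRa. Het replicate 1 was highest of the 9 libraries for Enpp2 and lowest for Mbp. The further gene at an unadjusted p under 0.05 was Myrf, lower in Het than in WT without overlap. Its difference was -0.76, with a limma unadjusted p of 0.0178 and an adjusted p of 0.875.

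Among the precursor genes, Vcan encodes the matrix proteoglycan versican. It was at 23.7, 25.5 and 31.9 CPM in WT, 20.2, 21.5 and 31.2 CPM in Het and 27.1, 29.5 and 29.8 CPM in Het CRISPRa. The groups overlapped, and the highest library of each was the one numbered between 15 and 17. The limma difference was -0.17 (95% interval -0.54 to 0.20) for Het minus WT and 0.27 (-0.10 to 0.64) for Het CRISPRa minus Het.

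The other 4 precursor genes were all under 1 CPM on average. Pdgfra, the gene of PDGF receptor alpha, was at 0.119, 0.203 and 0.708 CPM in WT, 0.652, 0.666 and 0.547 CPM in Het and 0.517, 0.248 and 0.112 CPM in Het CRISPRa, at 2 to 11 reads per library. The 3 Het values lay above the 3 Het CRISPRa values and within the range that WT spanned. Its Het CRISPRa minus Het difference was -0.53 with a limma adjusted p of 0.81. Cspg4, the gene of NG2, was at 0.239, 0.253 and 0.965 CPM in WT, 0.237, 0.121 and 0.199 CPM in Het and 0.575, 0.434 and 0.167 CPM in Het CRISPRa. Every Het value was under every WT value, the nearest by less than the worth of 1 read. The transcription factor genes Olig1 and Olig2 ranged from 0.242 to 1.22 CPM and from 0 to 1.22 CPM.

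WT replicate 3 had the highest level of the 9 libraries for all 5 precursor genes, Olig1, Olig2, Pdgfra, Cspg4 and Vcan. Without Vcan the group summed to 4.12 CPM there, where the other 8 libraries lay between 1.00 and 2.47 CPM. Among 12 further precursor genes the same library was highest for 4 (Tnr, C1ql1, Ptprz1 and Lhfpl3) and lowest for 2 (Bcan and Pcdh15). It is the library at the upper end of the first principal component, and the part of that in the precursor values was not tested. Of those 12 genes 10 were tested and none passed, with 0, 0 and 1 at an unadjusted p under 0.05. Tnr, the gene of the matrix glycoprotein tenascin-R, was the most abundant at 81.4, 91.6 and 122.7 CPM in WT, 100.2, 104.1 and 98.8 CPM in Het and 76.5, 120.6 and 90.3 CPM in Het CRISPRa. Pcdh15, a protocadherin gene, was at 82.7, 86.2 and 79.0 CPM in WT, 96.0, 97.4 and 79.6 CPM in Het and 102.5, 104.5 and 95.2 CPM in Het CRISPRa, without overlap between Het CRISPRa and WT (limma adjusted p of 1).

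Among the astrocyte genes, Slc1a2 encodes GLT-1, the main glutamate transporter of the forebrain. It was at 259.0, 230.4 and 236.9 CPM in WT, 258.5, 271.2 and 216.1 CPM in Het and 245.9, 261.1 and 241.2 CPM in Het CRISPRa. The Het libraries held both the highest and the lowest value. Its differences were 0.03 (95% interval -0.18 to 0.25) for Het minus WT, 0.01 (-0.21 to 0.23) for Het CRISPRa minus Het and 0.04 (-0.17 to 0.26) for Het CRISPRa minus WT. These were the narrowest intervals among the 27 tested markers.

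Ndrg2, an astrocyte gene of the NDRG family, was at 23.3, 22.7 and 14.0 CPM in WT, 13.7, 18.6 and 23.6 CPM in Het and 19.4, 15.8 and 19.1 CPM in Het CRISPRa. All Het CRISPRa values lay inside the range of both other groups. The remaining astrocyte genes were far lower: the folate enzyme gene Aldh1l1 at 1.67 to 8.97 CPM, the second glutamate transporter gene Slc1a3 at 1.998 to 5.47 CPM, the growth factor receptor gene Fgfr3 at 2.43 to 4.91 CPM and the transcription factor gene Sox9 at 2.06 to 4.83 CPM. Aqp4, the gene of the water channel of astrocytic endfeet, was at 0.969 to 1.67 CPM. Aldh1l1 was the marker with an unadjusted p under 0.05 in the authors' deposited table of Het CRISPRa minus WT, with a log2 fold change of -0.80, a standard error of 0.397, a p of 0.0445 and an adjusted p of 1. In limma its difference was -0.70 (95% interval -1.51 to 0.11), with the groups overlapping.

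Gfap, the gene of the intermediate filament that astrocytes raise after injury, was at 0.418, 0.557 and 0.579 CPM in WT, 0.474, 0.908 and 0.696 CPM in Het and 0.919, 0.124 and 0.390 CPM in Het CRISPRa. The injected group held both the highest and the lowest value. Its Het CRISPRa minus Het difference was -0.35 with an interval of -1.07 to 0.36, which spans both a fall and a rise. Gja1, the gene of the gap junction protein connexin 43, was at 0.298, 0.557 and 0.386 CPM in WT, 0.771, 0.242 and 0.448 CPM in Het and 0.287, 0.186 and 0.223 CPM in Het CRISPRa, at 3 to 13 reads per library. Every Het CRISPRa value lay below every WT value, and Het overlapped both groups.

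The summed astrocyte group was 281.8 ± 19.1 CPM (SD, n = 3) in WT, 285.0 ± 24.8 in Het and 283.8 ± 10.8 in Het CRISPRa. Of 16 further astrocyte genes 14 were tested and none passed, with 0, 0 and 1 at an unadjusted p under 0.05. Clu, the gene of the secreted chaperone clusterin, was at 53.6, 52.7 and 43.8 CPM in WT, 62.4, 41.9 and 38.1 CPM in Het and 44.0, 42.8 and 40.9 CPM in Het CRISPRa. Ntsr2, a neurotensin receptor gene, was at 46.8, 47.1 and 35 CPM in WT, 28.0, 42.9 and 32.2 CPM in Het and 36.3, 33.1 and 28.4 CPM in Het CRISPRa. Both overlapped between groups. Ntsr2 was the gene under 0.05, with a Het CRISPRa minus WT difference of -0.39 (limma unadjusted p of 0.0434). The 16 further genes summed to 221.6, 230.6 and 243.3 CPM in WT and 236.6, 224.5 and 184.0 CPM in Het. In Het CRISPRa they summed to 206.0, 192.1 and 189.5 CPM, below WT without overlap, and Het overlapped both groups.

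Genes of reactive glia were read from a list of 20 known to rise in astrocytes or microglia after injury. Of these 17 were listed and 8 were tested. Since the sort was meant to leave glia behind, their values do not measure the response of glia in the tissue. None passed in limma in any comparison, with 1, 0 and 0 at an unadjusted p under 0.05. That gene was Vim, which encodes the intermediate filament vimentin, at 0.119, 0.253 and 0.193 CPM in WT, 0.474, 0.848 and 0.696 CPM in Het and 0.402, 0.186 and 0.502 CPM in Het CRISPRa, at 2 to 14 reads per library. Het lay above WT without overlap, with a difference of 0.76 ± 0.28 (SE), an unadjusted p of 0.0195 and a limma adjusted p of 0.875. The median log2 difference of the 8 genes for Het CRISPRa minus Het was -0.17, with 2 genes above 0 and 6 below. The median over all tested genes was 0.04. The most abundant was the lipoprotein lipase gene Lpl at 10.9, 11.3 and 16.9 CPM in WT, 12.2, 10.7 and 13.2 CPM in Het and 11.5, 10.5 and 7.30 CPM in Het CRISPRa. It held 45.9% of the summed CPM of the 17 genes. The Het CRISPRa sums (25.16, 23.0 and 19.23 CPM) lay below the WT sums (25.47, 28.07 and 29.79 CPM). The Het sums (23.12, 28.58 and 25.42 CPM) overlapped both. Without Lpl, Het CRISPRa (13.7, 12.5 and 11.9 CPM) and WT (14.6, 16.8 and 12.9 CPM) overlapped. Serpina3n, the gene of a protease inhibitor of reactive astrocytes, was at 5.19, 7.70 and 5.47 CPM in WT, 3.62, 5.39 and 5.27 CPM in Het and 4.77, 4.65 and 4.404 CPM in Het CRISPRa. The injected libraries were below all WT libraries for Serpina3n and overlapped Het (limma adjusted p of 1 and 0.98).

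**Figure D4:**
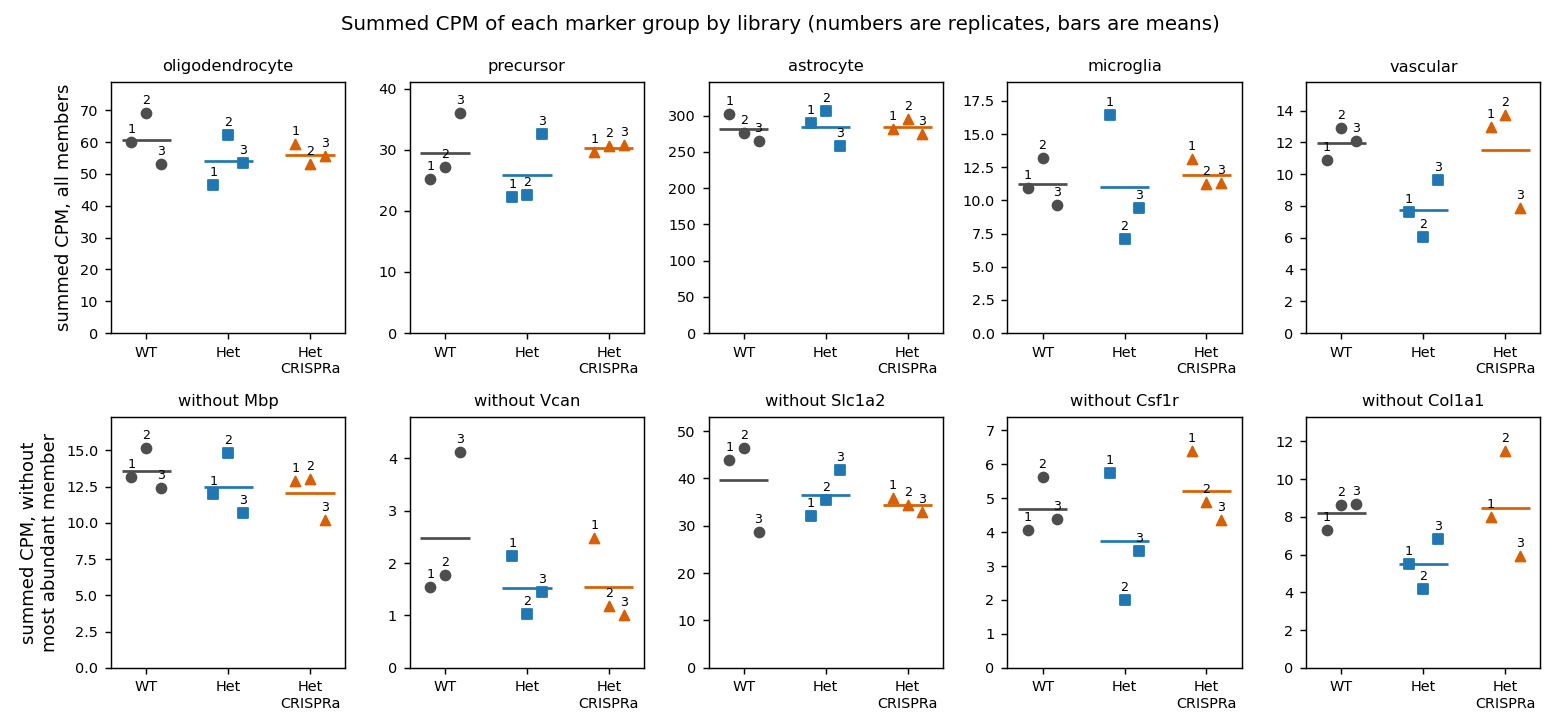
Summed CPM of the 5 marker groups by library, with all members (top) and without the most abundant member (bottom). Numbers beside the points are replicates and bars are group means. Het lies below WT without overlap in the vascular sum (6.06 to 9.60 against 10.9 to 12.9 CPM), a separation that was not tested. WT replicate 3 stands out among the precursor genes without Vcan (4.12 CPM). Het replicates 1 and 2 are the highest and lowest of the microglial sum (16.4 and 7.10 CPM).

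Among the microglial genes, Csf1r encodes the receptor for the growth factor CSF1, on which microglia depend. It was at 6.90, 7.60 and 5.26 CPM in WT, 10.7, 5.11 and 5.98 CPM in Het and 6.72, 6.30 and 6.99 CPM in Het CRISPRa. Het held both the highest and the lowest value, and the 3 injected libraries lay within the WT range. The Het CRISPRa minus Het difference was -0.05 (95% interval -0.59 to 0.50). Csf1r shares exon sequence with Hmgxb3 on the other strand, at 33.7 CPM.

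Tmem119, a gene used to tell microglia from other macrophages, was at 1.19, 1.62 and 0.579 CPM in WT, 0.771, 0.242 and 0.597 CPM in Het and 1.49, 1.49 and 0.836 CPM in Het CRISPRa, at 4 to 32 reads per library. Every injected library lay above every Het library and inside the WT range. The Het CRISPRa minus Het difference was 0.79 ± 0.33 (SE) with a limma adjusted p of 0.81, a mean ratio of 2.37. C1qb, a complement C1q gene made by microglia, was at 1.01, 1.37 and 1.16 CPM in WT, 1.30, 0.485 and 1.49 CPM in Het and 3.05, 1.36 and 1.84 CPM in Het CRISPRa, with overlap and a difference of 0.71 (95% interval -0.01 to 1.43). Another C1q gene, C1qa, went the other way, with a difference of -0.28 (-1.04 to 0.47) and a range of 0.669 to 2.25 CPM. C1qc, from the further microglial genes below, had a difference of 0.12 (-0.59 to 0.82). P2ry12, the gene of a purine receptor of resting microglia, ranged from 0.485 to 1.42 CPM and shares exon sequence with Med12l on the other strand, at 117 CPM.

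Het replicate 1 was the highest of the 9 libraries for Csf1r, P2ry12 and C1qa, and Het replicate 2 the lowest for Csf1r, P2ry12, C1qb and Tmem119. The microglial sum was 16.4 CPM in Het replicate 1, 7.10 CPM in Het replicate 2 and 9.41 CPM in Het replicate 3, beside 9.64 to 13.2 CPM in WT and 11.2 to 13.1 CPM in Het CRISPRa. Het therefore spanned both other groups. Without Het replicate 1 the log2 ratio of the summed means moved from -0.04 to -0.45 for Het minus WT and from 0.11 to 0.52 for Het CRISPRa minus Het. That library also had the highest summed CPM of 15 further microglial genes (46.4 CPM, where the others lay between 29.8 and 41.0 CPM) and lay at the lower end of the first principal component. The part of that in the microglial values was not tested.

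Of those 15 genes 10 were tested and none passed in limma, with 1, 1 and 0 at an unadjusted p under 0.05. These were Itgam in Het minus WT (difference -0.63, limma unadjusted p of 0.0465) and Cd68 in Het CRISPRa minus Het (-0.59, 0.0329). Cd68 thus went the other way from Tmem119. In Het CRISPRa minus Het, 7 of the 10 genes lay above 0 and 3 below, beside a median over all tested genes of 0.04. Aif1, the gene of IBA1, was at 4.65, 2.83 and 2.25 CPM in WT, 4.86, 2.72 and 3.72 CPM in Het and 2.68, 3.58 and 1.62 CPM in Het CRISPRa. The 3 groups overlapped for Aif1.

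With all members summed, the vascular group had a log2 ratio of -0.63 between Het and WT, the farthest from 0 of the 5 groups (without each group's most abundant gene the precursor group was farther, at -0.69 against -0.57). In CPM, Islr, Col1a1 and Dcn, which mark fibroblasts, held most of the vascular difference. The vascular sum was 12.0 ± 1.04 CPM (SD, n = 3) in WT, 7.75 ± 1.78 in Het and 11.5 ± 3.19 in Het CRISPRa. The 3 Het libraries (7.59, 6.06 and 9.60 CPM) lay below the 3 WT libraries (10.9, 12.9 and 12.1 CPM). The Het CRISPRa libraries were at 13.0, 13.7 and 7.86 CPM, with replicate 3 among the Het values. The libraries with the lowest vascular sums also had the fewest features above 0. These were 25522, 25801 and 25410 in Het and 26118 in Het CRISPRa replicate 3, beside 27809 to 28272 in the other libraries. The part of that in the vascular sums was not tested. Among the libraries numbered 7 to 12, Het was below both other groups, and among those numbered 15 to 17, with 1 library per group, WT was highest and Het CRISPRa lowest.

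Islr encodes a secreted protein with an immunoglobulin domain and leucine-rich repeats that marks fibroblasts and other mesenchymal cells. It was at 3.28, 2.69 and 2.83 CPM in WT, 2.02, 0.908 and 1.05 CPM in Het and 4.14, 3.78 and 4.01 CPM in Het CRISPRa, at 15 to 72 reads per library. The 3 groups were fully apart, with Het lowest and Het CRISPRa highest. The Het to WT ratio of means was 0.451 and the limma difference was -0.96 ± 0.26 (SE), with an unadjusted p of 0.00271 and an adjusted p of 0.875. The Het CRISPRa to Het ratio was 3.01 and the difference 1.34 ± 0.26, with an unadjusted p of 0.000187 and an adjusted p of 0.127, higher in 3 of 3 libraries. The Het CRISPRa to WT ratio was 1.36 and the difference 0.39 ± 0.26, with an adjusted p of 1.

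Over the alternatives tried, the adjusted p of Islr in Het CRISPRa minus Het ran from 0.046 to 0.604. It passed only when the libraries numbered 7 to 12 were used alone, with a difference of 1.24, and was highest without Het replicate 2. Those libraries are replicates 1 and 2 of each group, and with them alone 970 of 18214 tested genes and 1 of 25 tested markers passed. In the authors' deposited table the log2 fold change of Islr was 1.56 with a standard error of 0.431 and an adjusted p of 0.0856 for Het CRISPRa minus Het, and -1.10 with a standard error of 0.457 and an adjusted p of 1 for Het minus WT. Both Islr contrasts use the same 3 Het samples. Islr shares exon sequence with its neighbour Islr2 on the same strand, a gene at 50.7 CPM on average, and how reads in the shared sequence were assigned is not given in the sources used here. Islr2 itself was at 46.1, 52.0 and 59.0 CPM in WT, 46.2, 47.3 and 52.8 CPM in Het and 50.7, 53.9 and 48.4 CPM in Het CRISPRa, and its groups overlapped in every comparison.

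Col1a1 encodes a chain of type I collagen, the main collagen of fibroblasts. It was at 3.58, 4.31 and 3.41 CPM in WT, 2.08, 1.88 and 2.79 CPM in Het and 4.998, 2.17 and 1.95 CPM in Het CRISPRa. Het lay below WT without overlap, while the injected libraries spanned both groups. The Het minus WT difference was -0.64 ± 0.31 (SE), with a limma unadjusted p of 0.0558 and an adjusted p of 0.875. Col1a2, which encodes the partner chain, did not follow it: it was at 0.477, 0.507 and 0.643 CPM in WT, 0.237, 0.485 and 1.14 CPM in Het and 0.402, 0.372 and 0.112 CPM in Het CRISPRa. Het CRISPRa lay below WT without overlap for Col1a2 (difference -0.41, limma adjusted p of 1), and Het overlapped both groups.

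Dcn, the gene of the fibroblast proteoglycan decorin, varied widely among the injected libraries. It was at 2.51, 3.19 and 3.41 CPM in WT, 2.02, 1.03 and 3.28 CPM in Het and 2.53, 6.20 and 0.223 CPM in Het CRISPRa. The injected group held both ends of a 27.8-fold range, from 4 to 100 reads. Its Het CRISPRa minus Het difference was 0.0036 (95% interval -1.33 to 1.34), so that these data do not fix its direction. The library with the lowest Dcn, Het CRISPRa replicate 3, also had the lowest Col1a2 and, at 4.01 CPM, an Islr level inside its group's narrow range.

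**Figure D5:**
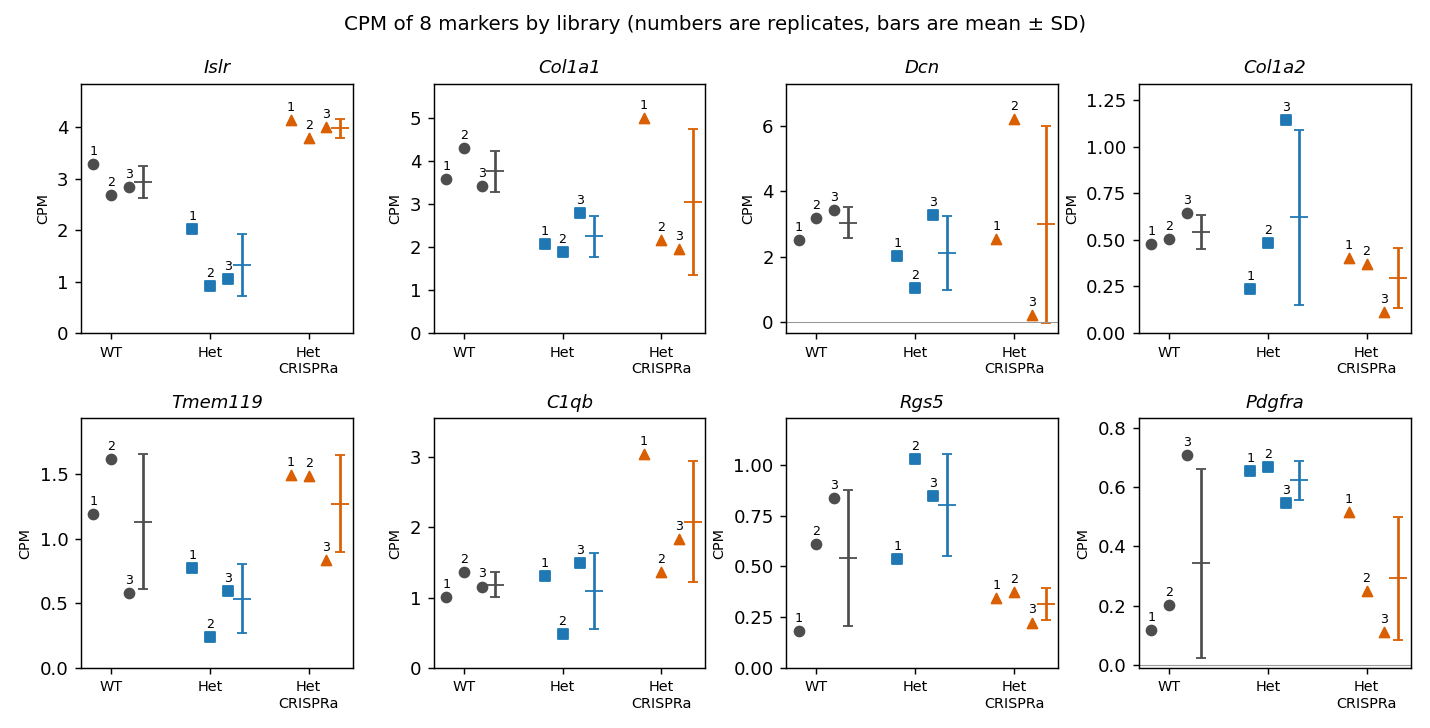
CPM of 8 markers by library, with replicate numbers beside the points and the mean ± SD (n = 3) at the right of each group. Islr is the one gene with 3 separate groups (0.908 to 2.02 CPM in Het, 2.69 to 3.28 in WT and 3.78 to 4.14 in Het CRISPRa). Dcn and Col1a1 spread widely among the Het CRISPRa libraries.

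The mural and endothelial members all had means under 1 CPM. Rgs5, a pericyte gene that restrains G protein signalling, was at 0.179, 0.608 and 0.836 CPM in WT, 0.534, 1.03 and 0.846 CPM in Het and 0.345, 0.372 and 0.223 CPM in Het CRISPRa. The injected libraries lay below all Het libraries, with a difference of -0.67 (95% interval -1.35 to 0.02) and a limma adjusted p of 0.81. Pecam1, the gene of the endothelial adhesion molecule CD31, was at 0.418, 0.912 and 0.515 CPM in WT, 0.652, 0.303 and 0.299 CPM in Het and 0.402, 0.310 and 0.335 CPM in Het CRISPRa. Het CRISPRa lay below WT without overlap (difference -0.37, limma adjusted p of 1). Flt1 was at 0.418, 0.507 and 0.450 CPM in WT, 0, 0.182 and 0.199 CPM in Het and 0.172, 0.496 and 0.725 CPM in Het CRISPRa, so that Het lay below WT at 0 to 13 reads per library. Cldn5 was at 0 to 5 reads and under the floor in 6 of 9 libraries, too few to place its groups.

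The sum of a further list of vascular genes did not follow that of the 8 members. Of 20 such genes 8 were tested and none passed in limma, with 1, 1 and 0 at an unadjusted p under 0.05. Their summed CPM was 24.8, 25.1 and 21.8 in WT, 30.7, 26.1 and 26.4 in Het and 21.0, 27.5 and 26.5 in Het CRISPRa. Het was thus above WT without overlap in this sum and below it in the sum of the 8 members. Slc2a1, the gene of the glucose transporter GLUT1 of the blood-brain barrier, was at 14.8, 15.4 and 12.1 CPM in WT, 17.5, 15.6 and 14.0 CPM in Het and 12.8, 17.5 and 16.8 CPM in Het CRISPRa. It held 59.4% of the sum of the 20 genes, of which 15 averaged under 1 CPM. Without Slc2a1 the sum was 10.0, 9.73 and 9.72 CPM in WT and 13.2, 10.5 and 12.5 CPM in Het, again without overlap. Pdgfrb, the gene of the PDGF receptor of pericytes, was at 1.73, 2.38 and 2.38 CPM in WT, 3.14, 4.30 and 2.99 CPM in Het and 1.78, 2.54 and 2.17 CPM in Het CRISPRa. The Het libraries were above both other groups without overlap for Pdgfrb, with differences of 0.57 ± 0.24 (SE) for Het minus WT and -0.57 ± 0.24 for Het CRISPRa minus Het and limma adjusted p-values of 0.875 and 0.81. Col3a1, the gene of type III collagen of fibroblasts, was at 0.119, 0.0507 and 0.322 CPM in WT and 0.593, 0.303 and 0.647 CPM in Het, with overlap and a difference of 0.61 ± 0.34 (limma adjusted p of 0.875). The group means of Islr and Col1a1 were thus lower, and that of Col3a1 higher, in Het than in WT.

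The neuronal genes of the same libraries give the scale for these values. Snap25, the gene of a protein of synaptic vesicle release, was at 780.2, 801.4 and 765.8 CPM in WT, 715.0, 815.1 and 710.3 CPM in Het and 787.3, 861.8 and 709.4 CPM in Het CRISPRa, and the neuronal enolase gene Eno2 lay between 361.7 and 548.6 CPM. The excitatory neuron genes Camk2a and Slc17a7 lay between 1703 and 1930 CPM and between 895.2 and 1066 CPM. The inhibitory neuron gene Sst lay between 78.5 and 146.9 CPM. None of the 39 neuronal genes passed in limma, with 1, 0 and 2 at an unadjusted p under 0.05. The summed inhibitory genes varied more between libraries (436.2 to 747.3 CPM) than the summed excitatory genes (3522 to 3998 CPM), with Het replicates 1 and 3 at both ends of the former.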

How the data were processed

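Per the submitters' processing notes, the tools were STAR 2.7.8a, featureCounts, DESeq2 1.44 and R 4.4, and the builds mm39 and GRCm39. Per the file headers, the authors deposited CPM for 39008 features in 9 mouse libraries. In units of 1 read, 79.8 to 82.4% of values above 0 were whole within 0.01 (91.2% of 297 marker values, with Mbp, Cnp and Csf1r the exceptions), so count tests were not run. The authors' deposited DESeq2 tables give log2 fold changes, p-values and adjusted p-values, quoted with the sign turned to the first-named group where needed.

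Here limma 3.58.1 in R 4.3.3 (eBayes with trend, tested on simulated data) was run on log2(CPM + 0.5) with all 9 libraries in one fit, for the 18967 genes that reached 0.5 CPM in 3 or more libraries, vector features left out, with Benjamini-Hochberg adjustment and a threshold of 0.05. Exon lengths and overlaps came from GENCODE M21 on GRCm38, which is not the authors' build. Python 3.11.15 gave the other values and plots. The members and gene lists were chosen with earlier results of these data known. Values per library are given for markers averaging at least 5 CPM or with groups that do not overlap, and for the 2 most abundant genes of each further list, some of which are not reported here. Gfap, C1qb, C1qc, Dcn, Vim, Col3a1, Myrf, Itgam and Cd68, and the neighbours of Islr, Cnp, Csf1r and P2ry12, were added after their values were seen. Alternatives changed the pseudocount, filter, scaling, variance trend, block, covariate and libraries used. Floors cover counting error only.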

Additional observations from a re-analysis of the deposited data

How the results depend on the processing

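No marker changed its call under any alternative except Islr in Het CRISPRa minus Het, which passed with the libraries numbered 7 to 12 alone (adjusted p of 0.046 in limma). Of 1551 marker values under the alternatives, 97 had the opposite sign to the value reported, all of them uncalled in both. The number of all tested genes past the threshold was less stable. For Het minus WT (0 as reported) it was 2 with the replicate block, 1 with the library number as a covariate, 14 with libraries 7 to 12 alone and 0 to 1 when 1 library was left out (1 without Het replicate 1). For Het CRISPRa minus Het (8 as reported) it was 2 without a filter and with a filter of 2 CPM, 3 without the variance trend, 31 with the replicate block and with the covariate, 970 with libraries 7 to 12 alone and 0 to 38 when 1 library was left out (38 without Het replicate 3 and 21 without WT replicate 3, 5 without Het replicate 1, 2 without WT replicate 2, 1 without Het CRISPRa replicate 1, and 0 without Het replicate 2 or Het CRISPRa replicate 2 or 3). For Het CRISPRa minus WT (1 as reported) it was 0 with a pseudocount of 0.1, a filter of 2 CPM, the replicate block or libraries 7 to 12 alone, and 0 to 3 when 1 library was left out (3 without Het replicate 3, and 0 without any WT or any Het CRISPRa library). The cause was not tested.

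Libraries with the same replicate number had correlations of their deviations from -0.11 to 0.418. Between WT and Het these were 0.337, 0.0339 and 0.418 for replicates 1, 2 and 3. Correlations between libraries of different numbers were not examined, so whether replicate numbers pair the samples was not tested. The block gave Islr an adjusted p of 0.0907 in Het CRISPRa minus Het and changed no marker's call.

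For the log2 ratios of summed CPM, 29 of 135 values under the alternatives had the opposite sign. Without Vcan the precursor ratio went from -0.19 to -0.69 for Het minus WT and from 0.04 to -0.68 for Het CRISPRa minus WT, and the mean of log2 values gave -0.21 for the latter. Without Slc1a2 the astrocyte ratio went from 0.02 to -0.12 and from 0.01 to -0.21 in the same comparisons, and the mean of log2 values gave -0.16 for the latter. The mean of log2 values took the vascular ratio of Het CRISPRa minus Het from 0.57 to 0.12. Leaving out 1 library gave microglial ratios of -0.45 to 0.20 for Het minus WT and -0.12 to 0.52 for Het CRISPRa minus Het, and vascular ratios of -0.81 to -0.48 and 0.42 to 0.78. Of the 33 markers, 9 were under 3 reads in at least 1 library, and their values there carry large counting error.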
